A study of Mus musculus with 6 samples.

Results

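Glycolysis and the pentose phosphate pathway were described through 33 genes, a pathway list of transporters, enzymes and regulators. The rule that takes them uses their names and none of their values, although the list was drawn up with earlier results of these data known. Each gene was read from the array probes that carry its name in the scanner files, taking the probe with the highest mean level. All 33 had a probe well above background on at least 1 array, out of 17301 such genes in all. The arrays hold RNA of mouse embryonic fibroblasts (MEFs), which are cultured connective tissue cells, all labelled as strain ICR. Of the 3 genotypes, wild type carries no named change, Clk/Clk is called a Clock mutant by the design text, and Per2m/m carries an altered Per2. Clock and Per2 are an activator and a repressor of the circadian clock. Cells of each genotype had received either a mock or, by the sample characteristics, a vector expressing H-Ras, a growth-signalling GTPase, and SV40T, the viral T antigen that binds p53 and RB. For transfected Per2m/m cells, however, the source name gives H-Ras and leaves out SV40. Each of the 6 groups was 1 array, so there were no replicates, and the labels give neither the number of embryos or clones behind a culture nor the promoter of the vector. The series title concerns resistance to chemotherapy in oncogenic cells with faulty PERIOD2, and the design lets transfected be compared with mock cells within each genotype.

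Glycolysis splits glucose into pyruvate in the cytosol, and cells that lack oxygen or grow fast turn much of that pyruvate into lactate and export it. The pentose phosphate pathway branches off at glucose 6-phosphate: its oxidative arm makes NADPH and its non-oxidative arm makes ribose 5-phosphate for nucleotides. Hypoxia-inducible factors (HIF), MYC, NRF2 and RAS signalling are known regulators of these genes, and mutant RAS is known to increase glucose uptake in transformed fibroblasts.

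The promoters of 32 of the 33 genes were matched in RefSeq sequences of build GRCm38.p6, as 47 windows from 250 bases before to 50 bases after a transcript start. The windows were searched on both strands for ACGTG, a core sequence of HIF binding sites. They were also searched for the E-box CACGTG, which contains ACGTG and is bound by CLOCK-BMAL1 and MYC. The last motif was TGACNNNGC, the core of the antioxidant element of NRF2. Other forms of these sites were not searched. Slc2a3 had no entry. The ACGTG core stood in 19 of the 47 windows (40.4%), against 19.6% of all 32851 promoters, and by gene in 16 of 32, against 21.8% of 27025 gene symbols. The E-box stood in 5 of 47 windows (10.6%, against 7.15% of all), and the NRF2 core in 6 of 47 (12.8%, against 12.4%). These matches are letters in a window, and base composition was not compared. The 250 bases upstream of 3 genes are shown because they carry the core and because the genes read very differently on the arrays: Slc2a1 was higher and Slc16a3 lower in transfected than in mock Per2m/m cells, while Ldha was nearly level. Capitals mark ACGTG, its reverse complement CACGT, and both together where they form CACGTG. All 3 sequences lie on the plus strand, at chr4:119108495-119108744 for Slc2a1, chr11:120948817-120949066 for Slc16a3 and chr7:46845554-46845803 for Ldha.
Slc2a1: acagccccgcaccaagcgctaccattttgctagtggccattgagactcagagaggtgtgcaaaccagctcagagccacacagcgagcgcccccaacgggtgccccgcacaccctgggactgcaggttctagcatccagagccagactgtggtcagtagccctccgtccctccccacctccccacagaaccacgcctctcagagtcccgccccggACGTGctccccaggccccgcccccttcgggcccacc
Slc16a3: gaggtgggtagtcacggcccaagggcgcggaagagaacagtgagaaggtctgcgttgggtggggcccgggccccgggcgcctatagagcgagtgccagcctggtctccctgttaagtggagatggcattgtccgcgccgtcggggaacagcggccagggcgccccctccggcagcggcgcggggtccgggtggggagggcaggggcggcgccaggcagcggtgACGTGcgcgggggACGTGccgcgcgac
Ldha: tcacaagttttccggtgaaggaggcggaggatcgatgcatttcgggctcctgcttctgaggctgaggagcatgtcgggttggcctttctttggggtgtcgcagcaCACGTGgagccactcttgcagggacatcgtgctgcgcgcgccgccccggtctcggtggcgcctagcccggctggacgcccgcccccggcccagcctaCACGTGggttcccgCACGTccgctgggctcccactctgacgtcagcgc
Slc2a1 held 1 core, Slc16a3 2 and Ldha 5, of which 4 lay within its 2 E-boxes. The windows of Pdk1 and Eno2, the genes with the highest Per2m/m responses, held none of the 3 motifs as searched. Whether they hold another form of the HIF site was not examined.

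A level is the log2 of a probe's processed signal over the 75th percentile of its array, and a response is the transfected minus the mock level within a genotype. Repeated spots of a probe put the spot noise of such a difference at 0.087 (log2), which covers the array and not the cultures. The transfected Per2m/m array stood apart. Across genes, its levels correlated with those of the other arrays at 0.854 to 0.892, whereas the median correlation of each other array was 0.930 to 0.945. It had 49.3% of spots well above background, against 53.5% to 57.3% elsewhere. Xist, Ddx3y and Eif2s3y, sex-linked genes that were all measured in mock Per2m/m cells, were not well above background on it, at least 16.6-fold, 23.2-fold and 13.7-fold lower. Xist was not well above background on either Clk/Clk array (-6.79 mock, -6.63 transfected), while Ddx3y and Eif2s3y were. The fibroblast markers had a median level of 3.14 on the transfected Per2m/m array, against 5.22 to 7.14 elsewhere. On that array 11 of 12 were well above background, and their summed signal of 2183 times the 75th percentile lay within the range of the other arrays, 1401 to 2288. Most of that sum came from Col1a2, Fn1 and S100a4, with Per2m/m responses of 0.50, 0.51 and 0.84. All other fibroblast markers had Per2m/m responses below 0, from -0.04 for Pdgfra to -7.76 for Thy1. Every Per2m/m response below rests on this array, and its part in them was not tested. Both Per2m/m arrays lay in another row of the slide than the other 4, so slide row and genotype cannot be told apart.

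The altered genes themselves did not mark the genotypes as losses of signal. Per2 read -3.37 and -2.38 (wild type, mock then transfected, the order kept in all such sentences), -3.91 and -3.88 (Clk/Clk) and -0.98 and -2.82 (Per2m/m), highest in mock Per2m/m cells. Clock read 0.49 and 0.70, -0.30 and -0.05, and 0.34 and 0.78 in the same order, lowest in both Clk/Clk cultures. Where the alterations lie within these genes is not given, so the probes check neither label. The probe of the mouse Hras gene read 4.17 and 4.01, 3.23 and 3.86, and 4.49 and 3.16, and whether it detects the vector's H-Ras is not stated.

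Transfected Per2m/m cells differed from their mock in far more of the 33 genes than the other genotypes did. There, 8 of the 33 were at least 2-fold higher (24.2%), where 20.3% of all genes measured were, and 5 were at least 2-fold lower (15.2%, against 22.5%). In wild type cells 2 were at least 2-fold higher (6.06%, against 7.97%) and 2 lower (6.06%, against 12.9%). In Clk/Clk cells 0 were higher (0%, against 4.21%) and 1 was lower (3.03%, against 4.71%). The shares therefore lay near or below those of all genes in each genotype. In all, 15 of the genes passed 2-fold in at least 1 genotype and 18 stayed under it in all 3.

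**Figure D1:**
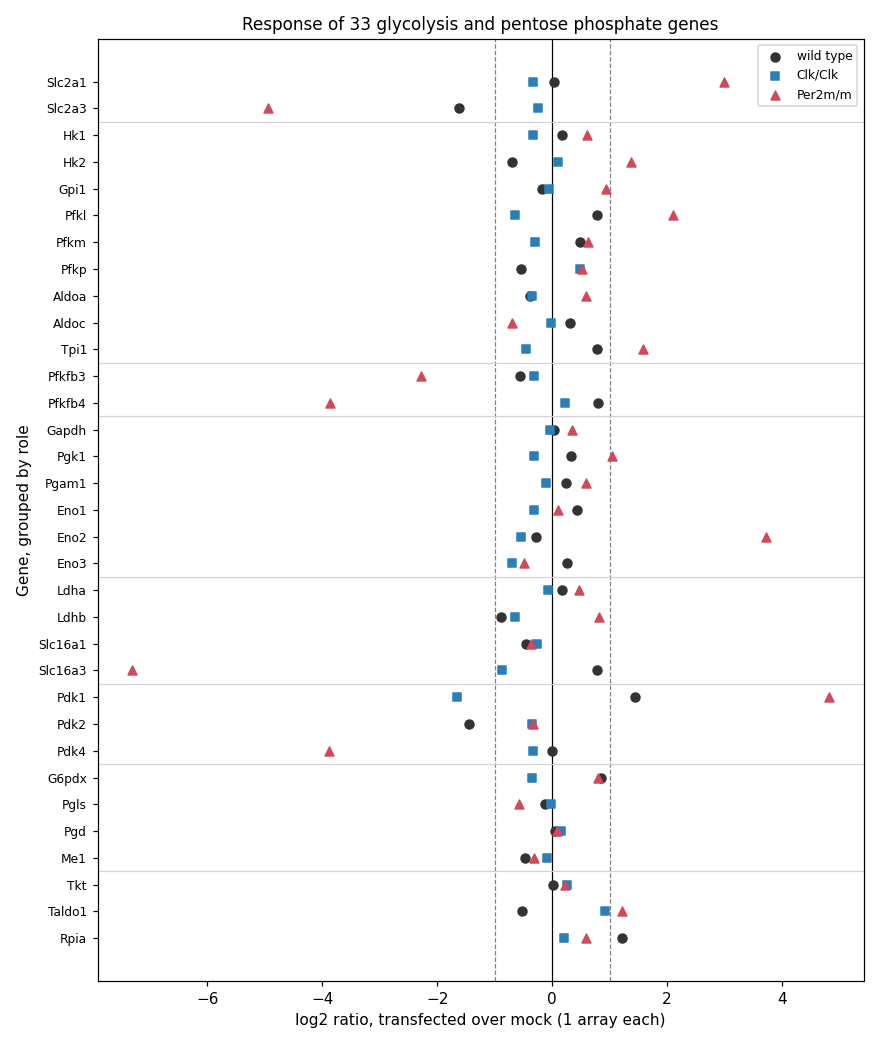
Response of each of the 33 genes, as the log2 ratio of the transfected over the mock array (x axis, 1 array each), with genes grouped by role on the y axis. Dashed lines mark 2-fold; Per2m/m cells (red triangles) span -7.30 to 4.81, wild type cells (dark circles) -1.61 to 1.44 and Clk/Clk cells (blue squares) -1.65 to 0.92.

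Markers of other cells moved with transfection as well. Macrophage markers well above background numbered, mock then transfected, 11 and 7 (wild type), 7 and 6 (Clk/Clk) and 11 and 6 (Per2m/m) of 11. Their summed signals were 45.6 and 23.8 (wild type), 60.9 and 56.4 (Clk/Clk) and 52.0 and 16.8 (Per2m/m) times the 75th percentile, mostly from Itgam on every array. Their median levels were -1.04 and -4.91 (wild type), -3.33 and -3.99 (Clk/Clk) and 0.36 and -3.30 (Per2m/m). Tyrobp and Ctss, which were measured in mock wild type and mock Per2m/m cells, were not well above background on any other array. Of 7 skeletal muscle markers 3 were measured, with summed signals of 34.01 and 16.1 (wild type), 16.1 and 26.9 (Clk/Clk) and 65.7 and 0.43 (Per2m/m). The last pair followed Acta1, an actin gene with a response of -7.60. Des had -2.82 in Per2m/m cells. Tnnt3 had -0.03 there but was not well above background in the transfected cells. Myod1, Myog, Ckm and Mylpf were not well above background on any array. Epithelial and adipocyte markers differed in both directions in transfected Per2m/m cells: Krt14 had a response of 6.70, Krt8 and Cdh1 were at least 5.24-fold and 3.24-fold higher, and Krt19 and Krt18 at least 87.9-fold and 15.9-fold lower. Lpl had 2.40, while Fabp4 and Cebpa were at least 71.9-fold and 31.3-fold lower. Summed signals on all 6 arrays ran from 0.66 to 6.55 for the epithelial and from 4.46 to 18.8 for the adipocyte list, both highest in transfected Per2m/m cells. Krt14 made up most of the epithelial sum there. Lpl, the 1 adipocyte marker well above background there, made up nearly all of the other sum. The median level of the adipocyte list was lowest there, at -5.74. Cycling markers were well above background on all arrays. Their summed signal was higher in transfected than in mock cells of each genotype. It was 77.9 and 186 (wild type), 72.1 and 114 (Clk/Clk) and 83.7 and 149 (Per2m/m). Responses of the 6 genes ran from 1.14 to 1.53 (wild type) and from 0.17 to 1.16 (Clk/Clk). The Per2m/m responses were uneven, with 2.10 for Mcm2, 1.01 for Pcna and 0.83 for Ccnb1. Mki67, Top2a and Cdk1 had only 0.26, 0.16 and 0.09 there. The part of these cells in the responses was not tested, and in such bulk RNA fewer cells of a type and less RNA per cell cannot be told apart.

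The median response of the 33 genes was 0.03 (wild type), -0.29 (Clk/Clk) and 0.52 (Per2m/m), against 0.01, 0.00 and 0.11 over all genes. In Clk/Clk cells 26 of the 33 lay below 0, most by small amounts, and 22 did so after quantile normalization. In Per2m/m cells 22 lay above 0, but quantile normalization, which forces the brightest signals of all arrays to be equal, left 17 above 0 and a median of 0.02. In wild type cells the split was 19 above and 14 below 0, and quantile normalization turned it to 13 above and 19 below. Under at least 1 alternative the sign turned for Slc2a1, Hk1, Gpi1, Eno2, Ldha, Pdk4, Pgls, Pgd and Tkt in wild type cells, for Hk1, Gpi1, Pgam1 and Ldha in Clk/Clk cells, and for Gapdh, Eno1, Ldha, Pgd and Tkt in Per2m/m cells. The transfected Per2m/m array held the highest of the 6 levels for 17 of the 33 genes, against 33.5% of all genes, and the lowest for 7, against 25.6%. Other scalings were not tried for these counts. Between genotypes, 22 of the 33 had the same sign of response in wild type and Per2m/m cells, against 63.6% of all genes, and 15 did in wild type and Clk/Clk cells, against 51.1%.

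Glucose enters fibroblasts mainly through GLUT1, encoded by Slc2a1, with the high-affinity GLUT3, encoded by Slc2a3, beside it. Slc2a1 read 3.98 and 4.01 (wild type), 3.94 and 3.61 (Clk/Clk) and 4.00 and 6.99 (Per2m/m). The 3 mock cultures were nearly alike and 1 transfected culture stood apart, 7.95-fold above its mock (2.99 on the log2 scale), the 596th highest response of 15890 genes. Slc2a3 read -1.73 and -3.34 (wild type), -1.56 and -1.81 (Clk/Clk) and -1.56 and -6.51 (Per2m/m). It was lower after transfection on all 3 pairs of arrays, with responses of -1.61 (wild type) and -0.25 (Clk/Clk), and it was not well above background in transfected Per2m/m cells, at least 8.15-fold below the mock. The 2 transporters thus differed in opposite directions in transfected Per2m/m cells. With a model-based background (normexp) the Slc2a3 responses were -0.98 in wild type, under 2-fold, and -1.37 in Per2m/m cells.

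The upper steps of glycolysis trap glucose and split it into triose phosphates. Of the 9 genes, 8 had a response above 0 in Per2m/m cells, 3 of them at least 2-fold, where 20.3% of all genes were at least 2-fold higher. In Clk/Clk cells 7 of 9 lay below 0 (Gpi1 above it after quantile normalization). None passed 2-fold there or in wild type cells. Both sign counts include Hk1, whose probes disagree in sign. Hk2, the inducible hexokinase, read 2.28 and 1.58 (wild type), 1.05 and 1.15 (Clk/Clk) and 2.24 and 3.62 (Per2m/m). Transfected Per2m/m cells were thus 2.60-fold above their mock, and both Clk/Clk cultures were below all others. Hk1, the constitutive hexokinase, had responses of 0.18 (wild type), -0.34 (Clk/Clk) and 0.61 (Per2m/m), an order kept for all sets of 3 responses, but its 3 probes gave both signs in every genotype, so no direction is given. Gpi1, which makes fructose 6-phosphate, had responses of -0.17, -0.05 and 0.93, the first and second of unsettled sign under other scalings.

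Phosphofructokinase commits the sugar to glycolysis, and its 3 subunit genes differed from each other. Pfkl, the liver-type subunit, read 1.36 and 2.14 (wild type), 2.62 and 1.97 (Clk/Clk) and 1.30 and 3.41 (Per2m/m). It was 4.32-fold above the mock in transfected Per2m/m cells, 1.72-fold above it in wild type cells, and 1.57-fold below it in Clk/Clk cells. Pfkm, the muscle type, had responses of 0.48, -0.29 and 0.62. Pfkp, the platelet type, had -0.55, 0.48 and 0.52, and its other probe gave 0.13 in wild type cells. Thus 1 of the 3 subunit genes passed 2-fold.

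Aldolase splits fructose 1,6-bisphosphate and Tpi1 interconverts the products. Tpi1 read 5.66 and 6.43 (wild type), 6.72 and 6.26 (Clk/Clk) and 6.00 and 7.58 (Per2m/m), a response of 1.59 in the last, and its second probe gave 1.61. The pattern over genotypes resembled that of Pfkl: above the mock in wild type and Per2m/m cells and below it in Clk/Clk cells. Aldoa, the muscle-type aldolase, had responses of -0.38, -0.35 and 0.59. Aldoc, the brain-type aldolase, was the 1 upper-step gene that was lower in transfected Per2m/m cells, with responses of 0.31, -0.02 and -0.69.

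Pfkfb3 and Pfkfb4 encode bifunctional enzymes that set fructose 2,6-bisphosphate, the main activator of phosphofructokinase. Both were far lower in transfected than in mock Per2m/m cells, opposite to Pfkl. Pfkfb3 read 1.87 and 1.30 (wild type), 1.06 and 0.74 (Clk/Clk) and 1.51 and -0.78 (Per2m/m). Its response of -2.29 in Per2m/m cells was the lowest of 3 responses that were all below 0. Pfkfb4 read 2.49 and 3.29 (wild type), 0.07 and 0.29 (Clk/Clk) and 2.30 and -1.56 (Per2m/m). Pfkfb4 was thus high in 3 cultures, low in both Clk/Clk cultures and lowest in transfected Per2m/m cells, 14.5-fold below their mock. A second Pfkfb4 probe was not well above background on either Per2m/m array, so the mean response of both probes, -2.25, rests in part on background.

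The lower steps, which yield ATP, were mostly within 2-fold. Of the 6 genes, all had a response below 0 in Clk/Clk cells, with a median of -0.31, except that after quantile normalization Pgam1 lay above 0 and Gapdh at 0. In Per2m/m cells 5 lay above 0, of which Gapdh and Eno1 did not after quantile normalization, and in wild type cells 5 did, with Eno2 the sixth, above 0 under median scaling. Pgk1, the first ATP-making enzyme, read 7.06 and 7.39 (wild type), 7.42 and 7.12 (Clk/Clk) and 7.31 and 8.36 (Per2m/m). Its response of 1.05 in Per2m/m cells was 0.48 after quantile normalization, and the files place its probe at chr3:57906830-57906894 (mm9) although the gene lies on chromosome X, so a copy of the gene may share the signal. Gapdh, often used as a reference gene, had responses of 0.03, -0.04 and 0.34, and over its 8 probes 0.03 to 0.24, -0.28 to -0.04 and 0.32 to 0.65. The reported Gapdh probe is placed at chr7:59003199-59003257 (mm9), off the gene's own chromosome 6, so related copies may contribute there too. Pgam1, the mutase of this stretch, had responses of 0.24, -0.10 and 0.58.

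The 3 enolase genes stood out within this stretch because they differed from each other. Eno2, the neuron-type enolase, read 1.10 and 0.83 (wild type), 1.49 and 0.94 (Clk/Clk) and -0.25 and 3.47 (Per2m/m). Mock Per2m/m cells had the lowest of the 6 readings and transfected Per2m/m cells the highest, 13.2-fold apart (3.72), the 367th highest response of 15890. Eno1, the ubiquitous enolase, had responses of 0.43, -0.31 and 0.11, the last of unsettled sign. Eno3, the muscle-type enolase, read 3.36 and 3.62 (wild type), 4.58 and 3.88 (Clk/Clk) and 4.80 and 4.31 (Per2m/m). Eno3 was thus lower after transfection in both mutant genotypes, by 0.70 and 0.49, and its wild type cultures had the lowest readings.

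Pyruvate becomes lactate through lactate dehydrogenase, and lactate leaves through monocarboxylate transporters. Slc16a3, encoding MCT4, the exporter of glycolytic cells, read 3.91 and 4.69 (wild type), 3.10 and 2.23 (Clk/Clk) and 4.84 and -2.47 (Per2m/m). Mock Per2m/m cells had the highest reading and transfected Per2m/m cells the lowest, 158-fold apart (-7.30). This was the 178th lowest response of 15890, and a second, overlapping probe gave -7.25. In wild type cells the Slc16a3 response was 0.78 and in Clk/Clk cells -0.87, so the direction differed among genotypes. Slc16a1, encoding MCT1, which takes up or exports lactate, had responses of -0.45, -0.27 and -0.36, with a range of 0.45 over all 6 arrays, which places it among the steadiest of the genes.

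The lactate dehydrogenase genes showed no difference of that size. Ldha, the subunit that favours lactate formation, spanned 0.65 over the 6 arrays, with responses of 0.18, -0.08 and 0.47 whose signs all turned under quantile normalization. Ldhb, the subunit that favours pyruvate, read 2.76 and 1.86 (wild type), 4.35 and 3.70 (Clk/Clk) and 2.52 and 3.34 (Per2m/m). Ldhb was higher in both Clk/Clk cultures than in any other, and its response was below 0 in wild type (-0.90) and Clk/Clk cells (-0.65) and above it in Per2m/m cells (0.82).

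Pyruvate dehydrogenase kinases keep pyruvate out of the mitochondria by inactivating pyruvate dehydrogenase, and each of the 3 listed took its own course. Pdk1, a HIF target, read -1.92 and -0.49 (wild type), 0.32 and -1.33 (Clk/Clk) and -2.08 and 2.73 (Per2m/m). It was 2.71-fold above the mock in wild type, 3.14-fold below it in Clk/Clk and 28.1-fold above it in Per2m/m cells, the one gene of the 33 past 2-fold in all 3 genotypes. The Per2m/m response of 4.81 was the 177th highest of 15890. Pdk4, induced by fasting and fatty acids, read 1.44 and 1.43 (wild type), 1.53 and 1.19 (Clk/Clk) and 1.70 and -2.19 (Per2m/m), where it was 14.8-fold below the mock while the 5 other cultures lay within 1.19 to 1.70. Pdk2, the most widespread of these kinases, read -0.62 and -2.07 (wild type), -1.18 and -1.52 (Clk/Clk) and -0.73 and -1.06 (Per2m/m). Its difference was widest in wild type cells, 2.72-fold below the mock, although a second Pdk2 probe gave -0.67 there, under 2-fold.

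**Figure D2:**
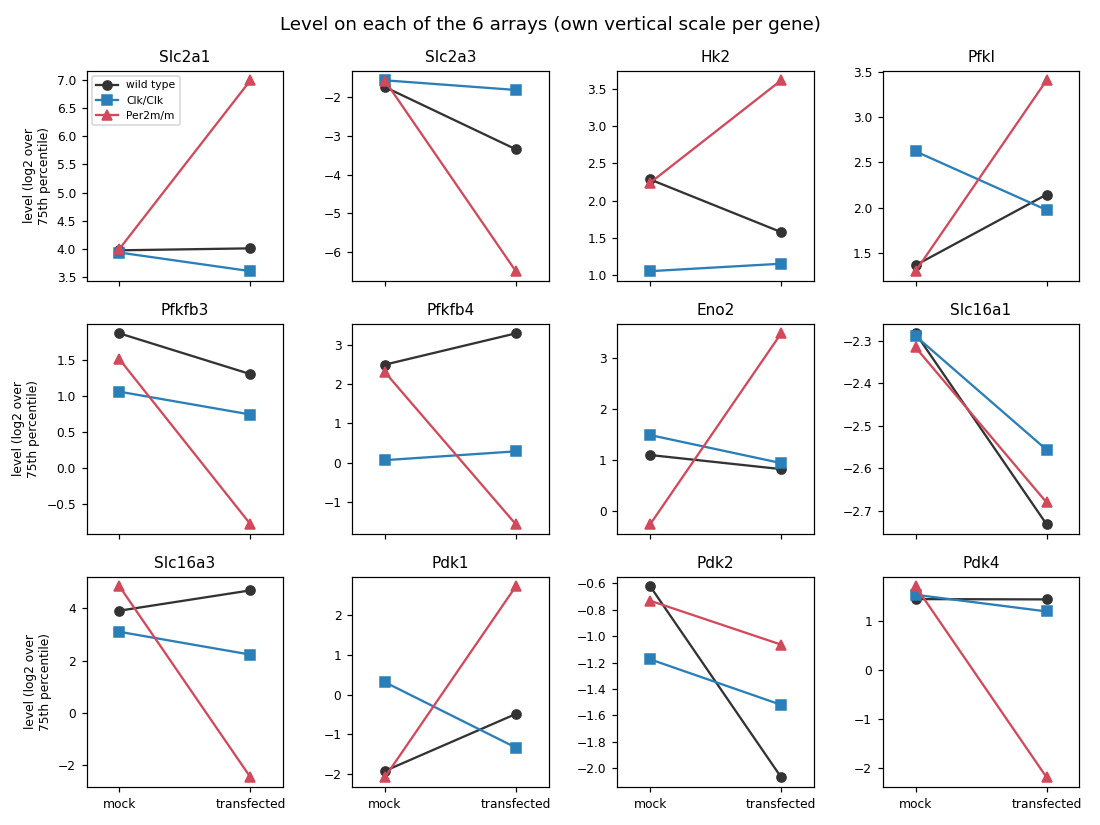
Level of 12 of the genes on each of the 6 arrays, as log2 signal over the 75th percentile of the array (y axis, its own scale for each gene), for mock and transfected cells (x axis); each point is 1 array and lines join the arrays of a genotype. Slc2a1, Eno2 and Pdk1 are highest, and Slc2a3 (there not well above background), Pfkfb3, Pfkfb4, Slc16a3 and Pdk4 lowest, in transfected Per2m/m cells.

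The pentose phosphate genes differed less than those of glucose uptake and pyruvate handling. In the oxidative arm, with malic enzyme beside it as another source of NADPH, 0 of 4 genes passed 2-fold in any genotype. G6pdx, which opens the pathway, read 3.48 and 4.33 (wild type), 3.51 and 3.16 (Clk/Clk) and 3.84 and 4.63 (Per2m/m). Responses of G6pdx were alike in size in wild type (0.86) and Per2m/m cells (0.79), and it was -0.35 in Clk/Clk cells. Pgls, the second enzyme, had responses of -0.12, -0.01 and -0.58. Pgd, the third and a second source of NADPH, had 0.04, 0.16 and 0.08, and both of its Clk/Clk readings, 3.31 and 3.46, lay below all others, which began at 4.25. Me1 had -0.47, -0.10 and -0.31, the lowest level being 3.69 in transfected Clk/Clk cells.

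Transketolase, transaldolase and ribose 5-phosphate isomerase form the non-oxidative arm. Tkt was the steadiest of the 33 genes, between 5.88 and 6.14 on all 6 arrays, with responses of 0.01, 0.26 and 0.23. Taldo1 read 6.88 and 6.35 (wild type), 5.89 and 6.80 (Clk/Clk) and 6.52 and 7.73 (Per2m/m). It was thus lower after transfection in wild type and higher in both mutants, 2.31-fold in Per2m/m cells, where quantile normalization left a response of 0.75, under 2-fold. Rpia read -1.40 and -0.18 (wild type), 0.01 and 0.21 (Clk/Clk) and -0.34 and 0.24 (Per2m/m). The wide difference of Rpia, 2.33-fold in wild type cells, came with a mock wild type reading that was the lowest of the 6.

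Over all 3 genotypes together, none of the 33 genes passed a test. In limma's fit of genotype and transfection across all 17301 genes, with 2 residual degrees of freedom, 0 of the 33 genes passed an adjusted p of 0.05 for transfected minus mock cells, as did 0.0% of all genes. For Per2m/m minus wild type cells 0 of the 33 passed, again beside 0.0% of all genes, and for Clk/Clk minus wild type cells 0 passed, beside 0.0%. At an unadjusted p under 0.05, limma gave 0, 0 and 2 of the 33 in those comparisons, and 812, 392 and 1652 of all genes. The coefficients for transfection ran from -2.47 ± 1.80 (SE) for Slc16a3 to 1.53 ± 1.37 for Pdk1, with limma adjusted p of 0.692 and 0.707. Slc2a3 had -2.27 ± 1.04 and Pfkfb3 -1.06 ± 0.51, both with a limma adjusted p of 0.692. The fit has no term for a response that differs among genotypes, so such differences count as error in it. The 2 genes under an unadjusted 0.05 were Ldhb, higher in Clk/Clk cells by 1.72 ± 0.56 (limma adjusted p = 0.509), and Pgd, with -0.89 ± 0.30 (limma adjusted p = 0.512). With the Per2m/m pair left out, the median coefficient of the 33 for transfection was -0.05, against 0.15 with all arrays, and without the wild type or Clk/Clk pair it was 0.15 and 0.18.

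Without transfection, mock Clk/Clk cells differed from mock wild type cells in 9 of the 33 genes at 2-fold, and mock Per2m/m cells in 3. These comparisons share the mock wild type array. Xist read -1.03 in mock wild type cells and was not well above background in mock Clk/Clk cells. Whether that bears on these counts was not tested. In mock Clk/Clk cells 6 genes were higher (18.2%, against 11.5% of all genes) and 3 lower (9.09%, against 11.3%). Pdk1 was 4.72-fold higher, Ldhb 3.01-fold, Rpia 2.65-fold, Pfkl 2.39-fold, Eno3 2.34-fold and Tpi1 2.09-fold. Pfkfb4 was 5.37-fold lower, Pfkp 3.02-fold and Hk2 2.35-fold. With arrays scaled to their medians, which moves the median of all genes in this comparison to -0.44, 3 of the 33 were higher and 8 lower. Of the genes higher in mock Clk/Clk cells, 5 (Pdk1, Ldhb, Pfkl, Eno3 and Tpi1) had Clk/Clk responses below 0, and both values use the mock Clk/Clk array.

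In mock Per2m/m cells 2 genes were at least 2-fold higher (6.06%, against 4.68% of all genes) and 1 was lower (3.03%, against 4.96%). Eno3 was 2.73-fold higher and Rpia 2.09-fold, and Eno2 was 2.55-fold lower. The other 30 genes lay within 2-fold of the mock wild type culture, with Slc16a3 the nearest to it at 0.93. Macrophage markers differed among the mock cultures: 11 of 11 were well above background in mock wild type and mock Per2m/m cells and 7 in mock Clk/Clk cells, where Adgre1, Tyrobp, Lyz2 and Ctss were not. Their median level was -1.04 in mock wild type, 0.36 in mock Per2m/m and -3.33 in mock Clk/Clk cells. Their summed signal, mostly Itgam, ran from 45.6 to 60.9 times the 75th percentile over the 3. The part of such cells in the mock differences was not tested.

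**Figure D3:**
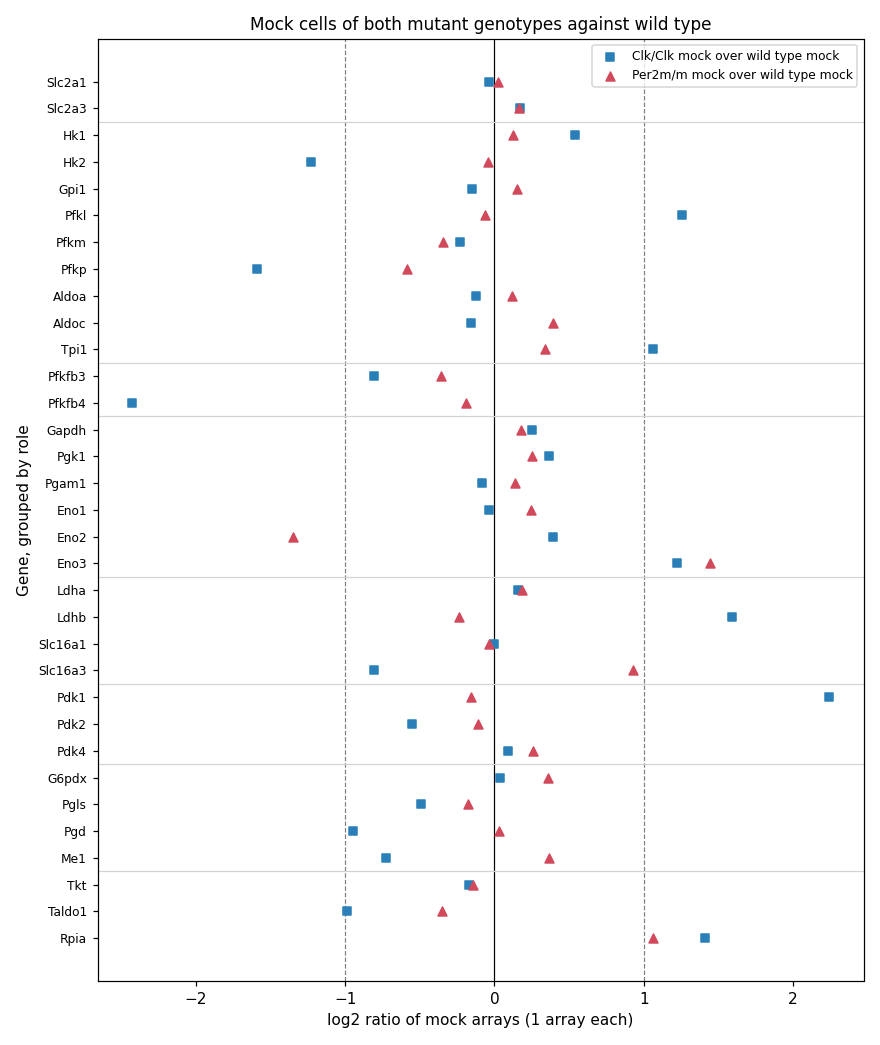
Log2 ratio of the mock Clk/Clk (blue squares) and mock Per2m/m array (red triangles) over the mock wild type array (x axis, 1 array each) for the 33 genes, grouped by role (y axis), with dashed lines at 2-fold. Mock Clk/Clk cells range from -2.43 for Pfkfb4 to 2.24 for Pdk1, while 30 of 33 genes of mock Per2m/m cells lie between the dashed lines.

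Lists of related genes were read beside the 33, with counts at 2-fold as above and no test. Beside these counts stand the shares of all genes: 20.3% higher and 22.5% lower in Per2m/m, 7.97% and 12.9% in wild type, and 4.21% and 4.71% in Clk/Clk cells. Among 15 measured other isoforms and transporters of glycolysis, 3 were higher and 2 lower in transfected Per2m/m cells, 0 and 4 among the wild type, and 1 and 1 in Clk/Clk cells. Hkdc1, a hexokinase-like enzyme, was at least 95.5-fold higher in transfected Per2m/m cells and well above background on no other array. Galm, which converts the anomers of galactose and glucose, was at least 15.1-fold lower there. Pkm, the pyruvate kinase outside liver and red cells, had responses of 0.37, 0.06 and 0.69, so the last step of the pathway stayed under 2-fold like most of the lower steps.

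Of 12 measured genes of gluconeogenesis and glycogen, 5 were higher and 1 lower in Per2m/m cells (20.3% and 22.5% of all genes), 0 and 1 among the wild type, and 0 and 3 of 14 in Clk/Clk cells. Pygl, the liver glycogen phosphorylase, was lower in each genotype, with responses of -2.84 (wild type) and -1.17 (Clk/Clk) and a transfected Per2m/m level at least 23.0-fold below the mock. Ppp1r3c, which targets a phosphatase to glycogen, had -3.10 in Clk/Clk cells and was well above background in no other genotype. Pcx, which turns pyruvate into oxaloacetate, had responses of -0.15, -1.83 and 2.16, with the signs of Pdk1 in both mutants.

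Of 10 genes for pyruvate entry into mitochondria, 3 passed 2-fold upward in Per2m/m cells and 0 downward (20.3% and 22.5% of all genes), with 0 either way in the other genotypes. They were Pdp1 (2.09) and Pdp2 (1.12), the phosphatases that oppose the Pdk kinases, and Mpc1 (1.34), a subunit of the mitochondrial pyruvate carrier. Of 12 other pentose phosphate and NADPH genes, 2 were higher and 3 lower in Per2m/m cells, together near the shares of all genes, 1 and 2 among the wild type, and 0 and 0 in Clk/Clk cells. Tigar, which lowers fructose 2,6-bisphosphate, was not well above background in transfected Per2m/m cells, at least 82.3-fold below the mock. Me3, a mitochondrial malic enzyme, had responses of -1.94, 0.70 and -4.12, while Mthfd1, an enzyme of folate metabolism, had 1.34, 0.35 and 1.04.

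The serine branch, which leaves glycolysis at 3-phosphoglycerate, had the highest median of these 8 lists in every genotype: 0.92, 0.52 and 1.63. Of its 7 genes, 4 (Per2m/m), 3 (wild type) and 0 (Clk/Clk) were at least 2-fold higher, against 20.3%, 7.97% and 4.21% of all genes, and 0 were at least 2-fold lower in any. Shmt1, which makes glycine from serine, had 1.84, 0.72 and 2.00, the amino acid transporter gene Slc1a5 had 1.26, 0.79 and 2.17, and Psph, the last enzyme of serine synthesis, had 0.36, 0.51 and 1.86.

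Among 21 HIF regulators and HIF targets outside glycolysis, 7 were higher and 1 lower in transfected Per2m/m cells (20.3% and 22.5% of all genes), 1 and 2 among the wild type (7.97% and 12.9%), and 1 and 4 in Clk/Clk cells (4.21% and 4.71%). Ndrg1 (6.28), Car9 (5.28), Bnip3 (3.41) and Vegfa (2.10) were higher in Per2m/m cells, as were Slc2a1 and Pdk1 among the 33 genes. Bnip3 had -1.37 and Hif1a itself -1.03 in Clk/Clk cells, where Pdk1 had -1.65, while Car12 had 1.22 and Vegfa -0.004. Known HIF targets were also among the lower genes in Per2m/m cells: Car12 at least 20.1-fold, beside Slc16a3, Pfkfb3 and Pfkfb4 of the 33 genes. The rest of the list stayed under 2-fold there, and the part of HIF in these responses was not tested.

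Of 15 measured glucose and MYC regulators, 4 were higher and 5 lower in transfected Per2m/m cells, 1 and 0 of 14 among the wild type, and 0 and 0 of 16 in Clk/Clk cells. Txnip, a glucose-induced brake on glucose uptake, was likewise at least 134-fold below the mock in Per2m/m cells, with responses of -0.73 (wild type) and -0.11 (Clk/Clk). Pparg, the adipocyte regulator, had 0.68, 0.39 and -5.31, and Myc had 1.30, 0.38 and 2.39. Of 8 NRF2 targets outside the pathway, 4 were higher and 0 lower in Per2m/m cells (20.3% and 22.5% of all genes), 1 and 1 among the wild type, and 1 and 0 in Clk/Clk cells. They included the cystine transporter gene Slc7a11 (0.89, 1.28 and 3.43), Gclc of glutathione synthesis (0.51, 0.62 and 2.35) and Gsr, glutathione reductase (1.26, 0.14 and 1.54). Of those among the 33 that NRF2 is also known to induce, Taldo1 passed 2-fold in Per2m/m cells, though not after quantile normalization. G6pdx, Pgd, Tkt and Me1 stayed under it in each genotype, except that with median scaling G6pdx had 1.17 (wild type) and 1.01 (Per2m/m).

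**Figure D4:**
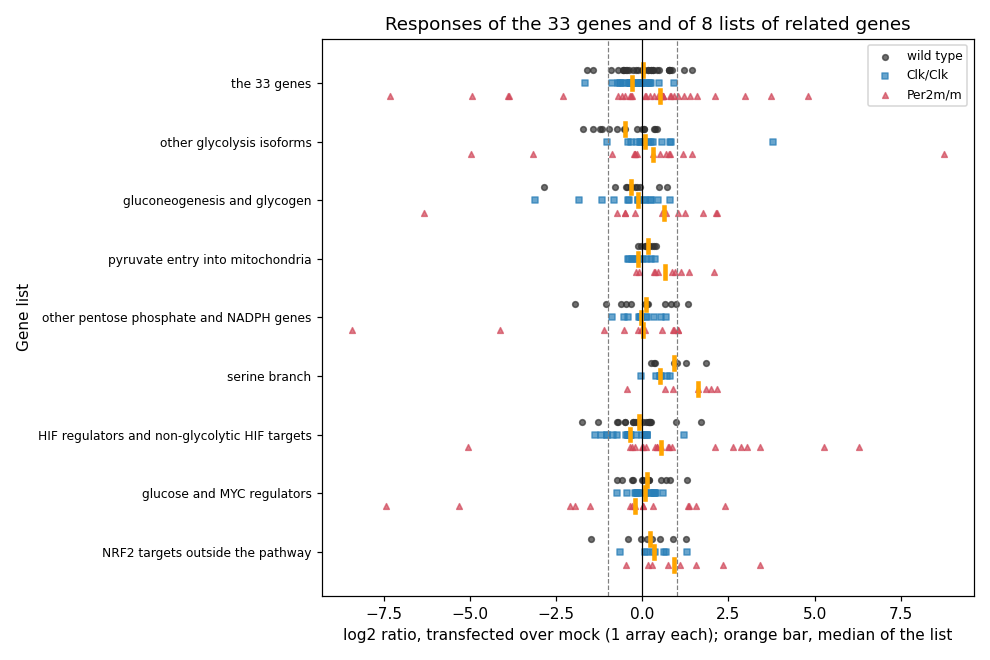
Responses (x axis, log2 ratio of transfected over mock, 1 array each) of the 33 genes and of 8 lists of related genes (y axis) in the 3 genotypes, with orange bars at the median of each list and dashed lines at 2-fold. Points below background on one side are drawn at their measured value; the Per2m/m points (red triangles) spread the widest in most lists, and the serine branch has medians above 0 in all 3 genotypes.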

How the data were processed

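Total RNA was measured on 6 one-colour (Cy3) Agilent arrays. Deposited scanner files hold an intensity per spot on a linear scale, made with Feature Extraction 10.7.1.1 per the file headers, although the submitters' processing notes name 9.5.1.1. The authors' deposited table also holds intensity, and its 6 columns held the same sorted values with a median of 23.8, so it was used as a quantile-normalized alternative. Per array 85 to 125 outlier spots of 59305 were left out and 0 were saturated. Spots of a probe were averaged on the log2 scale. RefSeq accessions named 27235 of 55681 probes (gene table of assembly GRCm38.p6), symbols 3581 and synonyms 565, and 23218 stayed unnamed. Probe coordinates are mm9.

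A gene was measured where at least 1 of the compared arrays was well above background. Calls need a fold of 2 or more and a brighter array that is well above background, and have no test. "At least N-fold" sets the brighter level against the higher of the dim probe's own and the lowest level well above background on its array. limma 3.58.1 in R 4.3.3 (lmFit, eBayes, two-sided, Benjamini-Hochberg) was tested on simulated data. Those data held a shift shared by all genotypes and no genotype-specific response. The simulation therefore does not show what the fit can find in these arrays. Its p-values reflect no more than the spread among these 6 arrays, which may be technical. With 1 array per group, that spread holds array noise and genotype-specific responses together. The members and lists were chosen with earlier results of these data known, and the rule was to name every member and, of each list, at most the 3 genes with the widest response. Alternatives were median scaling, quantile normalization, normexp with an offset of 50, the authors' table, the mean of all probes, stricter and no filters on dim probes, and each genotype left out.

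Pkm, Hif1a, Bnip3 and Vegfa lie outside that rule and were chosen after their values were seen. A further gene of these lists is not reported here. At most 6 of 9 epithelial, 3 of 5 endothelial and 4 of 6 adipocyte markers were well above background on any 1 array, and Cdh5, Tie1, Epcam, Adipoq and Cidec were on none.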

Additional observations from a re-analysis of the deposited data

Results flagged for a closer look

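The responses of Pdk1 ran in opposite directions between genotypes, past 2-fold on each pair of arrays. The response in Clk/Clk cells minus that in wild type cells was -3.09 on the log2 scale, and the response in Per2m/m cells minus that in Clk/Clk cells was 6.46. With 1 array per group, the difference was not tested.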

How the results depend on the processing

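With 1 array per group no array could be left out within a group, and the number of arrays limits every value. Of 690 alternative values for the 99 responses of the 33 genes, 673 kept their side of 2-fold, some of those under it with a turned sign. Of the rest, 12 newly passed 2-fold and 5 no longer did, and 0 of those called reversed. Of 18 responses past 2-fold, 15 stayed past it in every alternative. Signs of responses under 2-fold turned for 9 (wild type), 4 (Clk/Clk) and 5 (Per2m/m) genes. The limma counts were 0 in every alternative and without each genotype. With arrays scaled to their medians, which moves the median of all genes to 0.32 in wild type and 0.34 in Per2m/m responses, 7 of the 33 were at least 2-fold higher in wild type cells instead of 2, and in mock Clk/Clk cells 3 were higher and 8 lower instead of 6 and 3. With normexp 1 gene was higher in mock Per2m/m cells instead of 2, and 1 lower in wild type cells instead of 2. Restricting to probes well above background on all 6 arrays, which drops Slc2a3, also left 1 lower in wild type cells. Quantile normalization and the authors' table each gave 1 gene higher in Clk/Clk cells instead of 0. In Per2m/m cells, normexp gave -1.37 for Slc2a3, -6.54 for Slc16a3, 4.19 for Pdk1 and -3.30 for Pdk4. Causes of these shifts were not tested, except where a gene was dropped.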
